A study of Mus musculus with 8 samples.

Results

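The classical type I interferon-stimulated genes (ISGs) were described here as 45 named genes, taken by their symbols from a table of 54232 gene identifiers. All 45 were found. They were read in splenic CD8+ T cells and NK cells of Tyk2-/- mice on a C57BL/6N background (C57BL/6 in the labels), aged 8 to 12 weeks and kept under homeostatic conditions without interferon treatment. TYK2 is one of the kinases bound to the type I interferon receptor, so both groups shared the loss of the kinase and differed in cell type. They also differed in the replicate numbers of their sample titles, none of which was shared. Each group had 3 libraries, and each library came from cells sorted from a pool of 3 spleens. The study's methods name a targeted Tyk2 allele either alone or together with a CMV-cre transgene and do not say which the sequenced mice carried. Neither is limited to lymphocytes, so the setting in which the cells lived lacked TYK2 as well.

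Type I interferons bind a receptor made of IFNAR1 and IFNAR2, on which TYK2 and JAK1 phosphorylate STAT proteins. These join IRF9 in the complex ISGF3, which binds interferon-stimulated response elements in the promoters of ISGs. Their products degrade or sequester viral RNA, block entry and budding of viruses, and attach the ubiquitin-like protein ISG15 to other proteins. Many ISGs are also transcribed at a low level without infection, through tonic interferon signalling and other transcription factors. The comparison available here was NK cells against CD8+ T cells, both without TYK2. Libraries of WT CD8+ T cells were not analysed here, so no value below measures what the loss of TYK2 changed.

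RefSeq promoter windows (assembly GRCm38.p6, from 250 bases before to 50 after a gene's start, 300 bases in all) matched 36 of the 45 genes. They were searched on both strands for GAAANNGAAA, the core shared by most interferon-stimulated response elements, whose reverse complement reads TTTCNNTTTC. Only exact matches were counted, so a window without one may still hold a variant of the element. The core was present for 15 of 36 genes (41.7%), against 3.99% of all 27025 genes with a window and 3.44% of all windows. TTCNNNGAA, the core of the gamma-activated sequence and its own reverse complement, was found in 8 of 36 (22.2%) against 9.55% of all genes. Matches of the 2 motifs may overlap in part. The 250 bases upstream of 6 genes follow, 5′ to 3′ on the strand of the gene, with each match to the response-element core in capitals and overlapping matches run together. Isg15, Ifit1 and Rsad2 are shown because their upstream bases hold the core while almost no reads were counted in either cell type. Bst2 is shown because it holds the core and was well counted. Ube2l6 and Zc3hav1 are shown because they were called between the cell types and hold no match.
Isg15, chr4:156200819-156201068, minus strand: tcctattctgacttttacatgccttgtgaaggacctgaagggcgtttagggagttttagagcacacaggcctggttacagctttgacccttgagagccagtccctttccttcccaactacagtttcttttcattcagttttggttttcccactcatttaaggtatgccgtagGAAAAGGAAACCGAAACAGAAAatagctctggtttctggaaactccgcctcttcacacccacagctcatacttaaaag
Ifit1, chr19:34640639-34640888, plus strand: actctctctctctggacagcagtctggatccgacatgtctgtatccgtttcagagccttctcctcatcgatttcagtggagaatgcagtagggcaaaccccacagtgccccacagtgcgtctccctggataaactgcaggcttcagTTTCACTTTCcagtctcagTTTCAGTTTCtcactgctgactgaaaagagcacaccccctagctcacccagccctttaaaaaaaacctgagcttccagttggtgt
Rsad2, chr12:26456453-26456702, minus strand: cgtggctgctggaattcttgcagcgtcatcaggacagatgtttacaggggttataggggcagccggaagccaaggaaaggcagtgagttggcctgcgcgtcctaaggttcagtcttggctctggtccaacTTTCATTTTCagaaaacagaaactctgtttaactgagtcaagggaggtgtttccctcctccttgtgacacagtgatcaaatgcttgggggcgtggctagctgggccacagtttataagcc
Bst2, chr8:71537473-71537722, minus strand: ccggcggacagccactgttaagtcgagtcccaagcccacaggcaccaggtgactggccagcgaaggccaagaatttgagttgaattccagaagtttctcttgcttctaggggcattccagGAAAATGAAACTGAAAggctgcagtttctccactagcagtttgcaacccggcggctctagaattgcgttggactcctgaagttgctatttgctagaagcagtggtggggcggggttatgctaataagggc
Ube2l6, chr2:84798578-84798827, plus strand: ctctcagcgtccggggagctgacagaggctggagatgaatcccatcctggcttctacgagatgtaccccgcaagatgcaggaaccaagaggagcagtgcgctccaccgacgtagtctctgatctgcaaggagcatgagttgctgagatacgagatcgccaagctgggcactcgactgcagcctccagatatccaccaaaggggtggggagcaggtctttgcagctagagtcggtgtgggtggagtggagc
Zc3hav1, chr6:38354604-38354853, minus strand: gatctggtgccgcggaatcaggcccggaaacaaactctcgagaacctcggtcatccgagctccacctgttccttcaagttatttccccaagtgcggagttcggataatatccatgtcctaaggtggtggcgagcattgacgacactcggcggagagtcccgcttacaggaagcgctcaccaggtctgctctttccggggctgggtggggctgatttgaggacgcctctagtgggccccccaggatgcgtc
In this window Isg15 held 3 overlapping matches, which began between 78 and 66 bases before its start. Ifit1 and Bst2 each held 2 matches and Rsad2 held 1. A match is a description of letters and was not tied to binding in these cells.

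The libraries held between 20957384 and 26144478 counts in CD8+ T cells, against 32848432 to 38573550 in NK cells. Between 12893 and 14042 genes had a count in a CD8+ library, against 17224 to 17373 in an NK library. A gene without counts in CD8+ libraries is therefore not shown to be absent from the cells. The 45 ISGs took between 3351.3 and 3948.1 CPM (counts scaled per library total) of the CD8+ T cell libraries and between 2931.9 and 3374.4 CPM of the NK cell libraries. Cd8b1 was at 0 in every NK library and Ncr1 at 0 in every CD8+ library, but other markers of the opposite cell type were counted. The sum of 4 CD8+ T cell markers was 157828 to 181660 normalised counts in CD8+ T cells, against 3188 to 7182 in NK cells, there mostly Cd3d. The sum of 4 NK cell markers was 203410 to 245814 in NK cells, against 3869 to 10307 in CD8+ T cells, there mostly Klrd1. The targeted gene, Tyk2, had 105, 919 and 554 counts in CD8+ T cells, against 3864, 4245 and 3207 in NK cells. These are counts over the whole gene, and the exons missing from the allele are not given in the sources used here, so they do not test the genotype. Genes of B cells were also counted: Ms4a1 had 405, 6 and 0 counts in CD8+ libraries 1, 2 and 3 and at most 2 in an NK library, and the summed normalised count of 3 B cell markers was 6659, 4754 and 941 in CD8+ T cells, against 257, 1521 and 1.8 in NK cells. Nearly all of that sum was Cd79b, with 5739, 4725 and 940.6 in CD8+ T cells, against 255.9, 1519 and 1.8 in NK cells. Cd79a had 347, 17 and 0 counts in CD8+ T cells and at most 1 in an NK library, so both other markers were at or near 0 in CD8+ library 3 and in all NK libraries. Of the macrophage and monocyte markers, Adgre1 was at 0 in all 6 libraries and the sum of 4 genes ran from 2.45 to 142 in CD8+ T cells, against 250 to 859 in NK cells, most of it Cd68. Siglech, which marks plasmacytoid dendritic cells, had 405, 1 and 174 counts in NK cells and 0 in every CD8+ library, while the 3-gene list ran from 2721 to 6377 in CD8+ T cells, mostly Ccr9, which CD8+ T cells also express, and from 822 to 1391 in NK cells. Neutrophil markers were at 0 throughout and erythroid markers summed to at most 42.8. In bulk samples such as these, fewer cells of a type and less RNA per cell cannot be told apart.

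Values below are read counts scaled to a common library size with trimmed-mean (TMM) factors and called normalised counts, with each library shown in the order 1, 2 and 3. Levels of different genes were compared only as normalised counts per kilobase (kb) of exon. The levels of the ISGs were widely spread in both cell types. In CD8+ T cells 13 lay under 10 per kb, 21 between 10 and 1000, and 11 above 1000, and in NK cells the numbers were 9, 25 and 11. Ifitm1 was among the 11 in NK cells through library 2 alone, with 5.34, 4330 and 2.47 per kb. Across the 45 genes the mean level per kb in the 2 cell types had a Spearman rho of 0.77, as a description over genes that share the same libraries. The same 8 genes lay under 10 per kb in both cell types (Ifit1, Ifit3, Ifit3b, Rsad2, Isg15, Mx2, Ifi204 and Ifi44), and 9 lay above 1000 per kb in both (Sp100, Sp110, Phf11b, Nmi, Ifi35, Ifi27, Epsti1, Lgals3bp and Lgals9).

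Of the 5 highest levels per kb, 3 belonged to the same genes in both cell types (Lgals9, Ifi35 and Epsti1). In CD8+ T cells the highest level per kb was that of Lgals9, which encodes the glycan-binding galectin-9, with 7280, 4250 and 8890 normalised counts per kb (6804 ± 2356, SD, n = 3). It was followed by Ifi27 at 6071 ± 1662, Ifi35 at 5389 ± 2557, Epsti1 at 4027 ± 673 and Nmi at 3113 ± 1402 (SD, n = 3 each). No neighbours among these 5 were separated in all libraries. In NK cells the order was Lgals9 at 9489 ± 1631, Ifi35 at 7967 ± 242, Lgals3bp at 4456 ± 936, Sp100 at 3769 ± 519 and Epsti1 at 3022 ± 284 (SD, n = 3 each). Every NK library of Ifi35, which encodes a partner of NMI, lay above every NK library of Lgals3bp, and Sp100 lay likewise above Epsti1. Lgals9 and Ifi35 overlapped, as did Lgals3bp and Sp100. When lengths were taken from the longest transcript, 4 of the 5 highest in CD8+ T cells and all 5 in NK cells were unchanged.

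**Figure D1:**
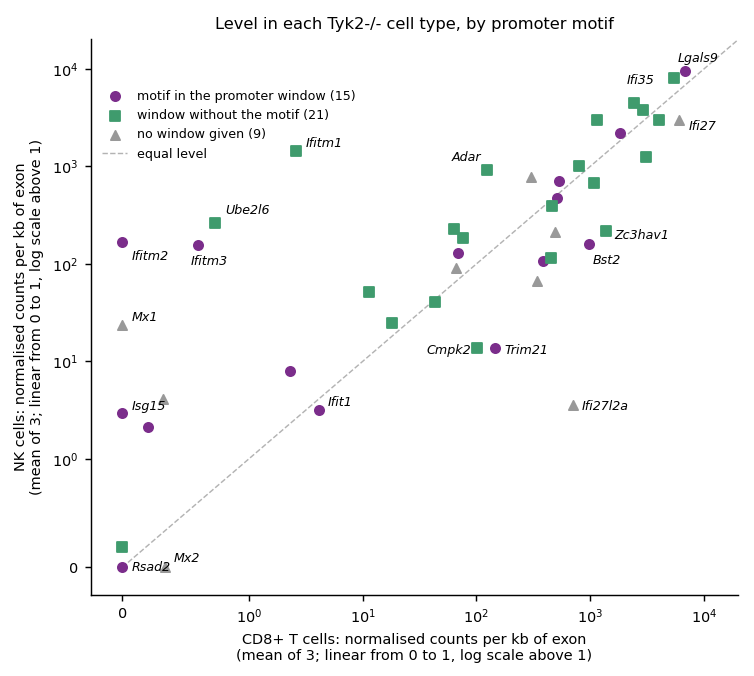
Mean level of each of the 45 genes in Tyk2-/- CD8+ T cells (x axis) and NK cells (y axis), as normalised counts per kb of exon over 3 libraries each, on axes that are linear from 0 to 1 and logarithmic above. Genes whose promoter window holds an exact match to the response-element core are circles (15) and those whose window lacks one are squares (21). Both kinds are found above 1000 per kb. Of the 8 genes under 10 per kb in both cell types 5 hold an exact match and 1, Ifi44, holds none.

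Genes with and without the promoter motif spanned much of the same range. Of the 15 genes with the core, 7 lay under 10 per kb in CD8+ T cells, against 5 in NK cells, with medians of 68.9 and 128 per kb. Of the 21 genes whose window held no exact match, 3 and 1 lay under 10 per kb, with medians of 454 and 392. Genes with the core ranged from 0 (Rsad2) to 6800 per kb (Lgals9) in CD8+ T cells, against 0 to 9490 in NK cells. These are descriptions of 2 small sets with broad overlap, and no test was made.

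Between the cell types 37 of the 45 genes passed the filter of a mean of 10 normalised counts over the 6 libraries. A gene was called where edgeR's quasi-likelihood test gave an adjusted p under 0.05, with Benjamini-Hochberg adjustment over all 14062 genes tested, and the log2 fold change was at least 1 in size. Of the 37, 4 were called (10.8%), against 11.1% of all genes tested. The calls were Adar, Sp110 and Ube2l6, higher in NK cells (3 of 37, 8.11%, against 6.1% of all genes), and Zc3hav1, higher in CD8+ T cells (1 of 37, 2.7%, against 5.04%). The share of ISGs called was thus near the background. An unadjusted p under 0.05 was reached by 15 of 37 genes (40.5%), against 30.7% of all genes. The median log2 fold change, NK over CD8+ T cells, was 0.39 for the ISGs and 0.1 for all genes. Of the ISGs tested, 21 were positive and 16 negative. TMM factors ran from 1.117 to 1.143 in CD8+ libraries and from 0.8591 to 0.9044 in NK libraries. Compared with plain library totals they shift fold changes towards NK cells, so the size of both medians depends on the scaling. The ISG median was 0.07 without CD8+ library 3 and between 0.29 and 0.47 without each other library. It was also 0.39 with 4 genes with almost no counts in CD8+ T cells set to their count ratios or bounds. That step could not move the median, since all 4 genes lay above it either way.

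The 3 calls higher in NK cells were lost when any one NK library was left out, although their log2 fold changes stayed between 2.74 and 3.07 for Adar, 1.35 and 1.48 for Sp110, and 8.1 and 8.68 for Ube2l6, the last depending on the prior count. In each of these fits edgeR called Zc3hav1 alone among the ISGs and between 3.45% and 3.54% of all genes. DESeq2 called 10 ISGs and 25.4% of all genes. Leaving out CD8+ library 1 gave 7 of 38 ISGs tested, against 11.6% of all genes, and leaving out CD8+ library 3 gave 7 of 39, against 12.7%, so that there the ISGs lay above the background. Leaving out CD8+ library 2 gave 4 of 38, against 13.4% of all genes, so that there they did not. In all 3 NK libraries 7 of the 37 genes lay above all 3 CD8+ libraries (18.9%, against 25.5% of all genes), and 10 lay below all of them (27%, against 16.1%). The other 20 overlapped. P-values measure the spread between these pools and the amplification of each library from 500 pg of RNA.

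**Figure D2:**
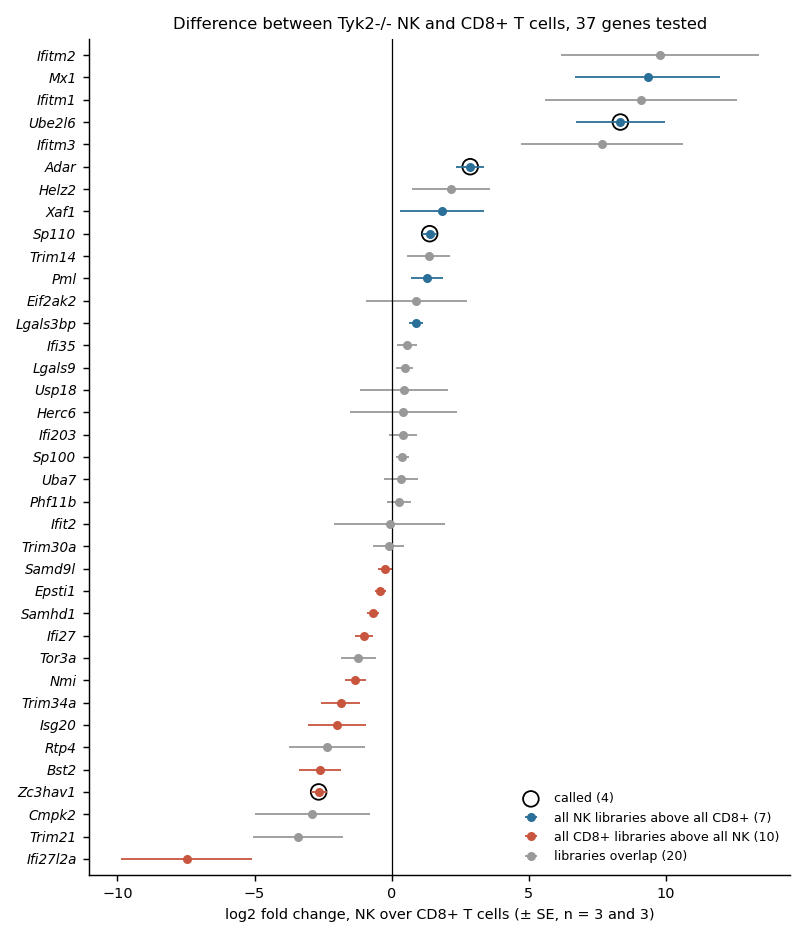
Difference of NK cells from CD8+ T cells as log2 fold change (± SE derived from the test's F statistic, 3 libraries each) for the 37 genes tested, ordered by size. The 4 called genes are ringed, and the long bars of Ifitm1, Ifitm2, Ifitm3, Mx1 and Ifi27l2a belong to genes at or near 0 in one cell type, whose fitted fold changes depend on the prior count.

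Among the 12 RNA-binding and antiviral effectors, 8 were tested, 1 was called higher in each cell type (against 6.1% of all genes higher in NK cells and 5.04% in CD8+ T cells) and 6 were not called. Zc3hav1 (ENSMUSG00000029826, chr6:38305286-38354603, minus strand) encodes ZAP, which binds CpG-rich viral RNA and directs it to decay. It had 11400, 7968 and 7274 normalised counts in CD8+ T cells, against 1762, 1203 and 1255 in NK cells. The groups were far apart, with a log2 fold change of -2.66 (SE 0.29, adjusted p = 0.0032, edgeR). The call held without each library in turn, with adjusted p between 0.0063 and 0.029.

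Adar (ENSMUSG00000027951, chr3:89715022-89753446, plus strand) encodes the deaminase that converts adenosine to inosine in double-stranded RNA. It had 1305, 466 and 481.9 normalised counts in CD8+ T cells, against 6195, 3864 and 6399 in NK cells. Its log2 fold change was 2.87 (SE 0.52, adjusted p = 0.019, edgeR), with adjusted p between 0.0062 and 0.087 when single libraries were left out. Of its 50-base windows 19.51% were shared with the overlapping gene Chrnb2, so its count is uncertain there, since the strand setting is not given. Zc3hav1 and Adar, both sensors or editors of RNA, were thus called in opposite directions.

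Isg20, a 3′ exonuclease, lay higher in every CD8+ library, with 758.6, 789.8 and 599 normalised counts against 18.49, 160.8 and 359.6 in NK cells. Its NK libraries spread 19.5-fold, and it was not called (log2 fold change -1.99, SE 1.07, adjusted p = 0.25, edgeR). Samhd1, which hydrolyses deoxynucleotides, had 6662, 6152 and 5126 in CD8+ T cells, against 3188, 4115 and 3901 in NK cells. The groups did not overlap, but the difference was small (-0.68, SE 0.22, adjusted p = 0.091, edgeR). Samd9l, which restrains translation, had 2686, 2400 and 2292 against 2287, 1763 and 2220, with a log2 fold change of -0.23 (SE 0.26).

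Eif2ak2 encodes PKR, the kinase that stops translation on sensing double-stranded RNA. It had 0, 697.8 and 193.5 normalised counts in CD8+ T cells, against 846.6, 118.1 and 695.8 in NK cells. One CD8+ library thus held no read of a gene that was well counted in another. Cmpk2, a mitochondrial nucleotide kinase next to Rsad2 on chromosome 12, had 657, 318.9 and 0 in CD8+ T cells, against 32.11, 19.27 and 80.01 in NK cells. Neither gene was called, with adjusted p of 0.79 and 0.39 (edgeR).

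The Ifit genes, whose products bind viral RNA that lacks the marks of self, lie side by side on chromosome 19 and were counted very differently. Ifit2 had 2.447, 489.3 and 1.935 normalised counts in CD8+ T cells, against 156.7, 62.82 and 249.9 in NK cells. Its level in CD8+ T cells came from library 2 alone, and without it the log2 fold change moved from -0.07 to 6.12. Ifit1 never exceeded 26 raw counts and Ifit3 never exceeded 27, and both had 0 in NK library 3. Ifit3 and Ifit3b shared 51.24% and 45% of their windows with other genes, nearly all with each other, and since only uniquely aligned reads were counted, their counts are too low by an unknown amount. Rsad2, which encodes the nucleotide-modifying enzyme viperin, had 0 counts in all 6 libraries although its neighbour Cmpk2 was counted in 5.

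In the ISG15 system, which conjugates ISG15 through an E1, an E2 and an E3 enzyme, the modifier and its enzymes were not at like levels. Isg15 itself had 0 counts in 5 libraries and 8 in NK library 2. Against a floor of 3 counts over the CD8+ group the bound was 2.13-fold higher in NK cells. This bound rests on that library alone and does not establish a difference between the cell types. Ube2l6 (ENSMUSG00000027078, chr2:84798828-84810335, plus strand), the E2 enzyme, had 0, 2.453 and 0.9677 normalised counts in CD8+ T cells, against 539.1, 499.2 and 192.4 in NK cells. It was all but undetected in every CD8+ library and clearly counted in every NK library. The ratio of its summed counts, scaled for library size, was 364 (95% exact conditional interval 124 to 1770, counting error only), and edgeR gave an adjusted p of 0.024, or between 0.023 and 0.12 when single libraries were left out. Other genes also hold 11.25% of its windows.

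Uba7, the E1 enzyme, had 5249, 1018 and 1426 normalised counts in CD8+ T cells, against 3400, 3405 and 2969 in NK cells. It was high in both cell types and its groups overlapped (log2 fold change 0.35, SE 0.62). Herc6, the mouse E3 enzyme, had 1.223, 2.453 and 257.4 in CD8+ T cells, against 72.98 to 160.9 in NK cells, with 23.84% of its windows shared. Usp18, which removes ISG15 and dampens receptor signalling, had 192.1, 158.2 and 0.9677 in CD8+ T cells, against 101.6 to 196.6 in NK cells. Of the 5 genes, 4 were tested and 1 was called, higher in NK cells as were 6.1% of all genes. In CD8+ T cells RNA of the E1 enzyme was thus counted where RNA of the E2 enzyme and of ISG15 was not detectable. Protein was not measured.

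The Mx genes encode dynamin-like GTPases that trap viral components, and the Mx1 allele of most laboratory strains is defective. Mx1 had 0 counts in all CD8+ libraries and 12.65, 19.27 and 210.4 normalised counts in NK cells. The groups did not overlap, and summed counts were at least 72-fold higher in NK cells against a floor of 3 counts over the CD8+ group, but edgeR's adjusted p was 0.093. NK library 3 held 234 of the 270 counts, and without it the bound was 14.4-fold, a value computed after seeing the data. Mx2 had at most 2 counts in any library.

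None of the 5 membrane and trafficking genes was called by edgeR, while 4 of 5 had an unadjusted p under 0.05, against 30.7% of all genes, and DESeq2 called 3, against 25.4%. Ifitm1, Ifitm2 and Ifitm3 encode small membrane proteins that hinder fusion of viruses with the cell, and lie within one cluster on chromosome 7. In CD8+ T cells their raw counts were at most 7, 0 and 1. In NK cells Ifitm2 had 47.68, 284.8 and 0 normalised counts, Ifitm3 had 110, 209.4 and 0, and Ifitm1 had 5.838, 4732 and 2.697. All 3 were thus highest in NK library 2, and none exceeded 3 counts in NK library 3. Summed counts were at least 104-fold higher in NK cells for Ifitm2 and 290-fold higher for Ifitm3 (interval 51.8 to 11500, counting error only), while edgeR's adjusted p was 0.16 and 0.14. Since 48.51% of the windows of Ifitm2 and 10.02% of those of Ifitm3 also occur in other genes, their counts are uncertain. Without NK library 2, likewise left out after seeing the data, the bound for Ifitm2 was 20.3-fold and the ratio for Ifitm3 was 141, while without NK library 3 the latter was 436. In NK libraries 1, 2 and 3 the B cell marker sum was 257, 1521 and 1.8, nearly all of it Cd79b. Cd79a had 1, 1 and 0 counts there, and Ms4a1 had 0, 2 and 0. The macrophage and monocyte marker sum was 859, 549 and 250, most of it Cd68. Csf1r had 0, 22 and 0 counts, Lyz2 had 0, 0 and 43, and Siglech had 405, 1 and 174. The part of other cell types in the Ifitm values was not tested.

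Bst2, which encodes tetherin, the protein that holds budding virus at the cell surface, ran the other way. It had 1107, 500.4 and 695.8 normalised counts in CD8+ T cells, against 152.8, 67.85 and 159.1 in NK cells. The groups did not overlap, and the log2 fold change was -2.6 (SE 0.76, adjusted p = 0.071 with edgeR and 0.0013 with DESeq2). Rtp4, a chaperone of membrane receptors, had 1409, 548.2 and 43.55 in CD8+ T cells, against 37.76 to 270.6 in NK cells.

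**Figure D3:**
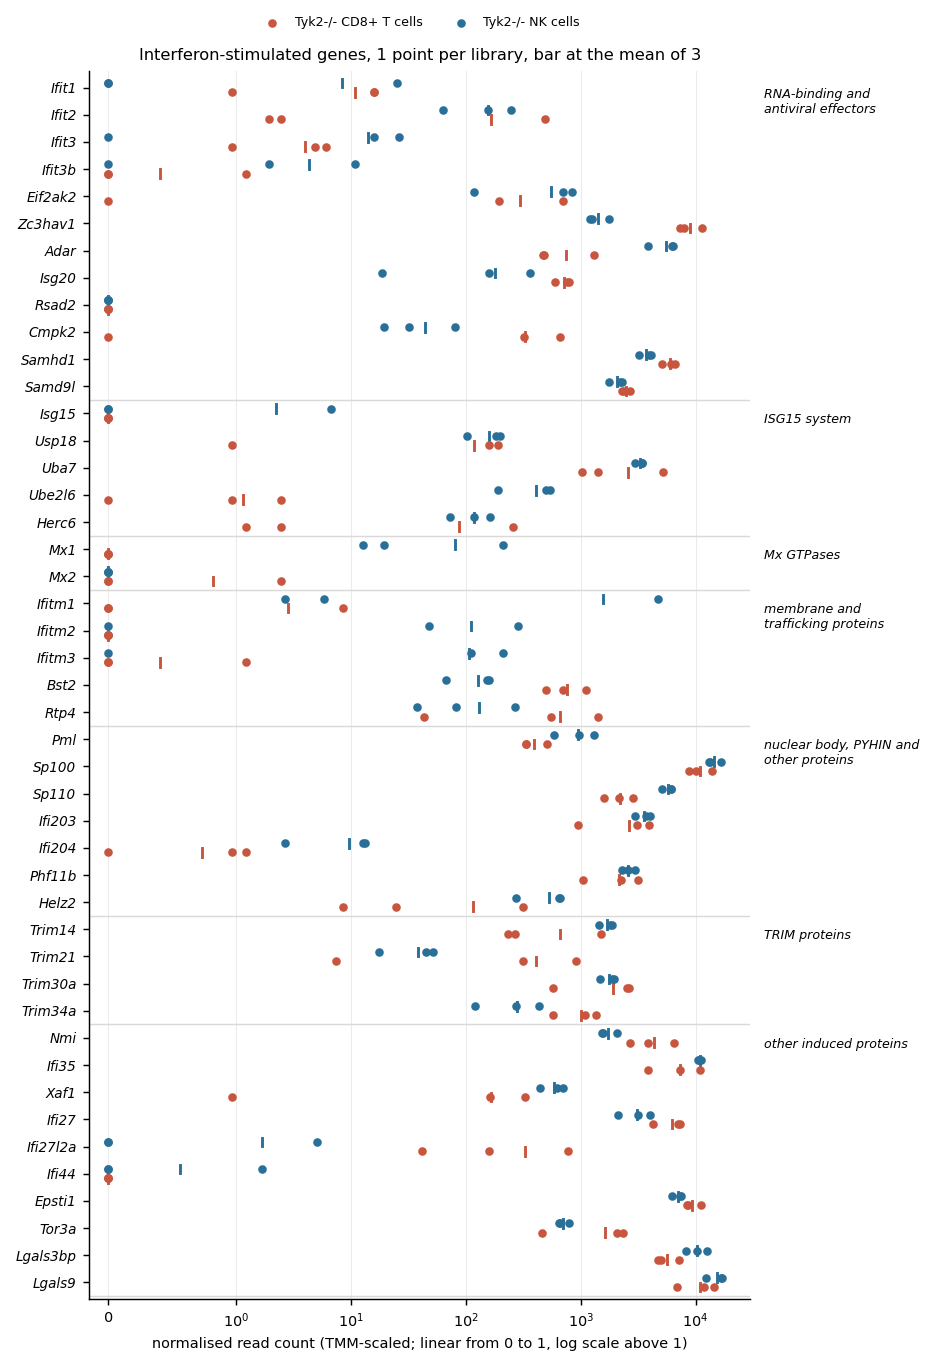
Normalised read count of each of the 45 genes in each library of Tyk2-/- CD8+ T cells and NK cells, grouped by role, with a bar at the mean of 3; the axis is linear from 0 to 1 and logarithmic above. NK libraries sit close together for most genes above 1000, while CD8+ libraries of Eif2ak2, Ifit2, Usp18, Herc6 and Xaf1 range from a few counts or none to over 100.

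Genes of nuclear bodies and of the PYHIN family of DNA-binding proteins, together with Helz2 and Phf11b, made up 7 of the ISGs, of which 6 were tested and 1 was called, higher in NK cells as were 6.1% of all genes. Sp110 (ENSMUSG00000070034, chr1:85576899-85598817, minus strand), a nuclear body protein of the SP100 family, had 2867, 2145 and 1600 normalised counts in CD8+ T cells, against 6139, 6122 and 5085 in NK cells. The groups were separate, with a log2 fold change of 1.39 (SE 0.28, adjusted p = 0.028, edgeR; 0.021 to 0.13 when single libraries were left out). Since 60.36% of its windows also occur in other genes, among them Gm15753, its count is uncertain. Pml, which builds the nuclear bodies, had 506.5, 331.1 and 335.8 in CD8+ T cells, against 963.3, 580.5 and 1314 in NK cells, and was not called (1.28, SE 0.58, adjusted p = 0.18, edgeR).

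Sp100, another component of these bodies, was among the highest ISGs in both cell types, with 13960, 10020 and 8845 normalised counts in CD8+ T cells, against 12990, 16590 and 13400 in NK cells. Its groups overlapped (0.39, SE 0.23). Ifi203 and Phf11b had means between 2144 and 3560 in both cell types and overlapped too, with 16.72% and 47.05% of windows shared with other genes. Helz2, a helicase that serves as a transcriptional co-activator, had 8.564, 24.53 and 315.5 in CD8+ T cells, against 273.9 to 658.8 in NK cells. Ifi204 had at most 1 count in CD8+ T cells, against 3 to 16 in NK cells, a ratio of 12.8 (interval 3.26 to 110, counting error only), with 30.17% of its windows shared with other genes, chiefly Ifi211.

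None of the 4 genes of the tripartite motif (TRIM) family was called by edgeR. Only Trim34a had an unadjusted p under 0.05, as did 30.7% of all genes, and it was called by DESeq2, as were 25.4% of all genes. Trim34a had 1093, 570.3 and 1348 normalised counts in CD8+ T cells, against 273.4, 435.6 and 120.5 in NK cells. The groups did not overlap (-1.86, SE 0.71, adjusted p = 0.14 with edgeR, 0.036 with DESeq2), and 59.69% of its windows were shared with other genes, chiefly Trim34b. Trim21, the cytosolic antibody receptor, had 312, 7.358 and 906.7 in CD8+ T cells, against 17.52 to 51.93 in NK cells. Its CD8+ libraries spread 123-fold. Trim14 ranged from 232.2 to 1495 in CD8+ T cells, against 1445 to 1857 in NK cells, and Trim30a from 573.8 to 2637 and from 1472 to 1960.

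The other 10 induced genes gave 9 tested and no call by edgeR, although 6 did not overlap between the cell types (25.5% of all genes lay higher in every NK library and 16.1% in every CD8+ library). An unadjusted p under 0.05 was reached by 4 of the 9, against 30.7% of all genes, and DESeq2 called 2, against 25.4%. Nmi, an interaction partner of STAT proteins and of IFI35, had 6499, 3862 and 2677 normalised counts in CD8+ T cells, against 2067, 1527 and 1579 in NK cells (-1.33, SE 0.38, adjusted p = 0.07 with edgeR and 0.017 with DESeq2). Its partner Ifi35 had 3888, 7281 and 10850 in CD8+ T cells, against 10560, 10790 and 11210 in NK cells, and overlapped. Neither was called.

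Ifi27 and Ifi27l2a, small hydrophobic proteins of mitochondria and nuclear envelope encoded next to each other on chromosome 12, both lay higher in every CD8+ library. Ifi27 had 4259, 7100 and 7310 normalised counts in CD8+ T cells, against 2113, 3147 and 4006 in NK cells (-1.01, SE 0.34, adjusted p = 0.1, edgeR). Ifi27l2a had 41.6, 780 and 157.7 in CD8+ T cells, against 0, 5.026 and 0 in NK cells (adjusted p = 0.09 with edgeR and 5.6e-04 with DESeq2). The first was well counted in both cell types, and the second was near absent in NK cells.

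Epsti1 had 11150, 8550 and 8345 normalised counts in CD8+ T cells, against 6262, 7494 and 7285 in NK cells (-0.41, SE 0.2). Lgals3bp, a secreted galectin ligand, had 4670, 5033 and 7175 against 10340, 12580 and 8221 (0.88, SE 0.26, adjusted p = 0.072, edgeR). Xaf1, which binds the apoptosis inhibitor XIAP, had 163.9, 328.7 and 0.9677 against 701.6, 445.6 and 617.6 (1.84, SE 1.52). The first pair of genes had separate groups but folds under the threshold, and Xaf1 had a wide error with CD8+ library 3 at 1 count. Lgals9 had 11740, 6849 and 14330 in CD8+ T cells, against 12280, 17020 and 16620 in NK cells, and overlapped. Tor3a ranged from 458.8 to 2340 in CD8+ T cells, against 652 to 793.2 in NK cells, and Ifi44 had 2 counts in 1 NK library and 0 elsewhere.

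By their medians the ISGs varied more between CD8+ libraries than between NK libraries. Among the 33 genes with a mean of at least 10 normalised counts in CD8+ T cells the median coefficient of variation was 0.578, against 0.708 for the 11889 genes that met the same rule, and in NK cells it was 0.307 over 37 genes, against 0.355. These medians were not matched for expression level. In CD8+ T cells 26 of the 45 genes had more than 3 counts in all 3 libraries, 9 in 1 or 2 and 10 in none, and in NK cells the numbers were 33, 9 and 3.

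Some genes were absent from one library and plentiful in another of the same cell type. Of the 32 ISGs that reached 100 scaled counts in a CD8+ library, 2 (6.25%, Eif2ak2 and Cmpk2) had 0 in another, against 19.2% of all such genes. With up to 3 counts in place of 0, a limit chosen after seeing the data, there were 6 (18.8%, with Ifit2, Usp18, Herc6 and Xaf1), against 26.5%. In NK cells 2 of 34 (5.88%, Ifitm2 and Ifitm3) had 0, against 3.46%, and 3 (8.82%, with Ifitm1) had up to 3, against 5.21%. The gaps of the 6 genes in CD8+ T cells did not fall in one library: Eif2ak2 was at 0 in library 1 and Cmpk2 in library 3, Usp18 and Xaf1 were at 1 count in library 3, Ifit2 was at 2 in libraries 1 and 3, and Herc6 was at 1 and 2 in libraries 1 and 2. CD8+ library 1 was the highest of its group for 15 of the 33 genes and library 3 the lowest for 17. In NK cells the gaps of all 3 Ifitm genes fell in library 3.

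The genes that carry the interferon signal were read as well. All 14 of those described here were tested and 3 were called (21.4%, against 11.1% of all genes): Ifnar2 and Jak1 higher in NK cells, where 6.1% of all genes were called, and Irf9 higher in CD8+ T cells, where 5.04% were. Ifnar2, a receptor chain, had 1910, 2193 and 1834 normalised counts in CD8+ T cells, against 6186, 7228 and 8564 in NK cells (1.89, SE 0.23, adjusted p = 0.0045, edgeR). Jak1, the kinase paired with TYK2, had 23770, 17250 and 14860 against 52030, 46490 and 47470 (1.39, SE 0.2, adjusted p = 0.01, edgeR). The receptor chain and its kinase were thus higher in NK cells in every library.

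Irf9, the DNA-binding subunit of ISGF3, went the other way, with 4520, 1925 and 3119 normalised counts in CD8+ T cells, against 1132, 525.2 and 743.5 in NK cells (-1.99, SE 0.47, adjusted p = 0.043, edgeR). Its groups were separate. Stat2, another subunit, had 47.72, 634 and 2181 against 268.6, 216.9 and 822.6 and overlapped (-1.13, SE 1.25). Ifnar1, the other receptor chain, had 340.1, 673.3 and 240 against 462.2, 758.9 and 788.4 and overlapped too (0.68, SE 0.67).

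When single libraries were left out, the adjusted p ran from 0.0077 to 0.036 for Ifnar2, from 0.0061 to 0.056 for Jak1 and from 0.034 to 0.15 for Irf9, whose call was made in 1 of 6 such fits. Among the genes not called, Irf1 and Irf2 had log2 fold changes of 0.81 (SE 0.3) and 1.05 (SE 0.39), with every NK library above every CD8+ library, as was so for Ptpn2 and Tyk2. Irf7, the amplifier of interferon transcription, was at 886 ± 401 and 865 ± 237 normalised counts (SD, n = 3 each) in CD8+ T cells and NK cells, with no direction that held under another scaling. The inhibitors Socs1, Socs3 and Ptpn6 overlapped between the cell types.

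**Figure D4:**
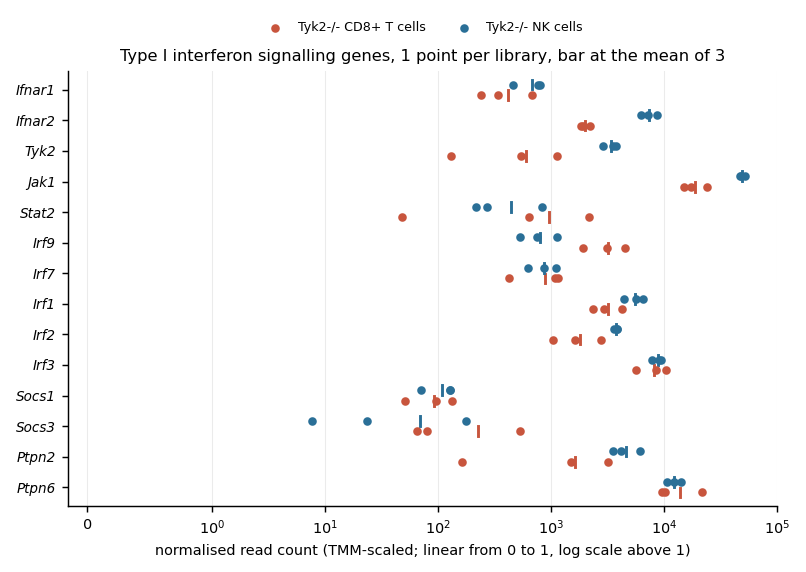
Normalised read count of 14 genes of type I interferon signalling in each library of Tyk2-/- CD8+ T cells and NK cells, with a bar at the mean of 3, on an axis that is linear from 0 to 1 and logarithmic above. Ifnar2 and Jak1 lie higher in all NK libraries, and Irf9 lies higher in all CD8+ libraries.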

How the data were processed

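RNA-seq libraries of sorted splenic CD8+ T cells and NK cells of Tyk2-/- mice were used, 3 of each. The authors reverse-transcribed and amplified 500 pg of RNA without molecular identifiers, sequenced 50-base single-end reads, used Trimmomatic 0.32 for trimming and STAR 2.7.1 for alignment to mm10, and counted uniquely aligned reads in exons in R 3.2.3. The strand setting is not given in the sources used here. The deposited values are raw read counts per gene. Of 104 value columns in the table, 6 entered the work and 98 did not. The WT CD8+ columns number 3 for 2 samples and were left out, so knockout and WT were not compared.

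Symbols, lengths and positions came from the GENCODE basic annotation of GRCm38, and promoter windows from RefSeq. Counts were normalised with TMM and tested with edgeR 4.0.16 (quasi-likelihood, robust) in R 4.3.3 over genes with a mean of at least 10 normalised counts. A call needed an adjusted p under 0.05 and a log2 fold change of 1 or more in size. The fit was tested on simulated data. DESeq2 1.42.0, RLE scaling, no filter and leaving out each library were the alternatives. Other steps used Python 3.11.15, pandas 2.3.3, numpy 2.4.6, scipy 1.17.1 and matplotlib 3.10.9. Fold changes printed as ratios used summed counts, with a floor of 3 counts over the group where these were 0, and their 95% intervals cover counting error only.

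The 45 genes, their roles, the signalling genes and the marker lists were chosen with earlier results of these data known. Values of every library were given for ISGs called, not overlapping, at 0 in one library and at least 100 scaled counts in another, or among the 5 highest per kb, for signalling genes called, and for Ifnar1, Ifnar2, Stat2 and Irf9. A few single-gene results are left out. The values of Ifit2, Uba7, Ifitm1, Rtp4, Trim21, Helz2, Usp18 and Herc6 by library were added after they were seen. Labels do not state whether pools came from separate litters or days, so p-values measure the spread between these libraries.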

Additional observations from a re-analysis of the deposited data

How the results depend on the processing

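RLE scaling and no filter on low counts called the same 4 ISGs and within 1.5 times as many of all genes (1567 in the main test). DESeq2 called 10 ISGs (5 higher in NK cells, 5 in CD8+ T cells), all 4 among them, 5 signalling genes in place of 3, and 3537 genes (2027 and 1510), with no adjusted p for 2 ISGs. Leaving out single libraries gave from 1 to 7 ISGs (0 to 5 higher in NK cells, 1 to 2 in CD8+ T cells), from 1 to 4 signalling genes, and from 475 to 1876 of all genes (235 to 1170 and 240 to 724). The lowest values came from leaving out an NK library, and Zc3hav1 was the ISG called in each of these fits; the cause was not tested. The ISGs added were Tor3a, Trim14 and Uba7 without CD8+ library 1, and Helz2, Lgals3bp and Nmi without CD8+ library 3.

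The count of ISGs at 0 in one library and high in another ran from 1 to 2 in CD8+ T cells and from 0 to 2 in NK cells when a library was left out, by having fewer libraries, and was 6 in CD8+ T cells with up to 3 counts, an alternative added after seeing the data. With the longest transcript 4 of the 5 highest in CD8+ T cells remained.

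Among the ISGs and signalling genes, signs turned only for genes not called in the main test. Without single libraries the log2 fold change ran from -0.67 to 6.12 for Ifit2, -0.12 to 0.99 for Usp18, -0.01 to 1.42 for Uba7, -0.12 to 5.9 for Herc6, -0.05 to 0.68 for Phf11b, -0.54 to 0.21 for Trim30a, -1.97 to 0.34 for Stat2, -0.36 to 0.23 for Irf7, -0.08 to 0.33 for Irf3, -0.07 to 0.57 for Socs1 and -0.35 to 0.32 for Ptpn6. Irf7 was 0.03 with RLE scaling and 0.03 with DESeq2. Uba7 was called higher in NK cells in 1 of these fits.

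No paired analysis was possible because running numbers of the columns do not name the samples' replicate numbers, and the labels do not say which libraries, if any, came from the same animals. The sample titles of the CD8+ T cells and NK cells share no replicate number, and what these numbers stand for is not stated. A difference that goes with this numbering cannot be told apart from cell type. Depth limits genes under about 3 counts, where a difference was not detectable.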
